A study of Drosophila melanogaster with 2 samples.

Results

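Of the 1941 reproducible Daughterless peaks of fly embryos, 204 carried the E-box CAGCTG at the summit, and these 204 are described here against the other 1737. A peak was taken when the whole hexamer lay within 50 bp of the summit on either side. The choice used sequence and summit position only, and peak height, genomic position and neighbouring bases played no part in it. The data came from chromatin immunoprecipitation and sequencing (ChIP-seq) in Drosophila melanogaster. The line, da-GFP, carries a transgene of daughterless (da) with green fluorescent protein at the C-terminal end, and the label names no promoter or cell type for it. Whole embryos of both sexes, pooled and 0 to 24 h old, were used, so the chromatin mixed all tissues and stages. Chromatin had been sonicated to 200 to 800 bp and was precipitated with an antibody against GFP. The 2 biological replicates, numbered 2 and 3, form 1 group with no other condition, and all tests below are therefore between peaks or hexamer copies of the same embryos.

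Daughterless is the fly's E protein, the broadly expressed basic helix-loop-helix factor that pairs with tissue-restricted relatives such as Achaete, Scute, Atonal and Twist. Each partner of such a dimer contacts one side of an E-box, CANNTG, and the central bases together with the bases just outside the hexamer are known to separate the sites of different dimers. CAGCTG reads the same on either strand. Sites of Daughterless with Achaete or Scute in sensory organ precursors have been described with G before the hexamer and G or T after it. CAGCTG with A or T on both sides, known as Ohler motif 5, is also a common element of fly core promoters.

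The windows of members that recur below are printed from the dm6 genome, on the plus strand from 5′ to 3′, with CAGCTG in capitals. The first 6 are those in which the hexamer stands between G and T on one strand. In the windows of brat and InR this is the minus strand, so that a precedes the capitals and c follows them.
CG32264 (chr3L:3785129-3785229): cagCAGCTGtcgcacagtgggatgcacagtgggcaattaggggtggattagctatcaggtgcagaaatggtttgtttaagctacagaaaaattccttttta
brat (chr2L:19155122-19155222): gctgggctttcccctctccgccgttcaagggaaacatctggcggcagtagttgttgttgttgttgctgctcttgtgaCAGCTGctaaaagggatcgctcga
sba (chr3R:23922327-23922427): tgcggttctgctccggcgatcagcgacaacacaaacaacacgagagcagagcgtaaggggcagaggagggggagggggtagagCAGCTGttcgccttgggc
E(spl)m8-HLH (chr3R:26040086-26040186): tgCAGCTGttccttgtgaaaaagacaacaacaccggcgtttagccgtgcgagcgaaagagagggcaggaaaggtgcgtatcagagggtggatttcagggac
msi (chr3R:25596565-25596665): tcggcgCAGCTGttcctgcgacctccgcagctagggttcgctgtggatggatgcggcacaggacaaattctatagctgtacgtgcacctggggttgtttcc
InR (chr3R:21580189-21580289): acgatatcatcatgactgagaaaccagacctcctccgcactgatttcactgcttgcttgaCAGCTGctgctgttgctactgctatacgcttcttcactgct
The next 3 show other surroundings: A and T on the outer sides at numb, a hexamer at the edge of the window at N, and the member with most copies, at AGO2.
numb (chr2L:9449669-9449769): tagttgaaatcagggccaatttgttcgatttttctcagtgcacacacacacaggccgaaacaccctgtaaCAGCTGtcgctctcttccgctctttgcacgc
N (chrX:3137916-3138016): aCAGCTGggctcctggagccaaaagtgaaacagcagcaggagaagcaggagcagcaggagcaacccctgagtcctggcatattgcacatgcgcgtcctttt
AGO2 (chr3L:15554361-15554461): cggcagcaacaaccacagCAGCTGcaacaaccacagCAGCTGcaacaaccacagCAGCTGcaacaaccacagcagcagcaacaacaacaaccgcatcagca
The last 3, of 26 bases, are hexamers at promoters of ribosomal protein genes that share C before the hexamer and T after it; other ribosomal protein members, such as RpS16 and mRpL52, have other outer bases.
RpS21 (chr2L:2856091-2856116): acttcacgtcCAGCTGtcatttcttt
RpS14b (chrX:7934873-7934898): atcgcattacCAGCTGtgttgttttt
mRpS2 (chr2L:4850649-4850674): aaatccattcCAGCTGtaatgattta

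Most members held a single hexamer, and its distance from the summit varied over the whole window. The hexamer was present once in 183 members, as a pair of copies in 20, and in 3 copies in 1, at the promoter of AGO2, which encodes an Argonaute protein of RNA interference. Those 3 copies are evenly spaced in a repeated stretch of CAG and CAA triplets. The centre of the nearest copy was a median of 20.5 bp from the summit (quartiles 8.5 and 33.5 bp), within 10 bp in 57 members and within 20 bp in 100. A hexamer 0.5 bp from the summit marked the members at CycY, insc and Mic26-27, whereas at Hs2st it was 47.5 bp away, the furthest that the rule admits. The 30 members whose nearest hexamer was 40 bp or more from the summit had a median pooled signal of 81.2, and the 28 peaks in which it was up to 10 bp past the limit, which are no members, had 81.0.

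The distance of the hexamer was also read from each replicate's own summits, whose reads had gone into the pooled summits that chose the members, so that the shares are a description only. In replicate 2, 203 of the 204 members had a region with a summit within 200 bp, and 174 of these (85.7%) had CAGCTG within 50 bp of the replicate's own summit. In replicate 3 all 204 were found, and 172 (84.3%) had it. The median distance of hexamer from summit was 24.5 bp in replicate 2 and 24.5 bp in replicate 3, larger than for the pooled summits, which the rule itself used. The summits that the replicates gave to 1 member were a median of 26 bp apart, against 28 bp for peaks without the hexamer. Many of the deposited regions have one width with the summit at the centre, so distances of this size are near the resolution of the summit calls. No pair of members had summits within 100 bp of each other, and 2 pairs were within 1000 bp.

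**Figure D1:**
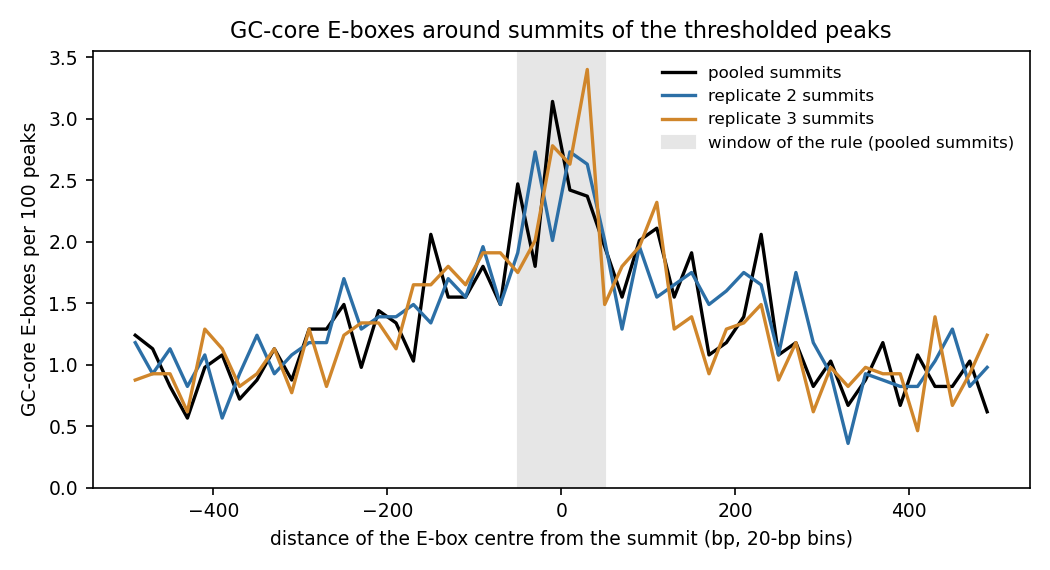
Number of GC-core E-box centres per 100 peaks (vertical axis) in bins of 20 bp against the distance from the summit in bp (horizontal axis). Lines are the pooled summits of the thresholded list and the summits of the 1941 strongest regions in the own list of replicate 2 and of replicate 3. Grey marks the window of the rule. All 3 lines are highest within 50 bp of the summit, at 3.14 for pooled, 2.73 for replicate 2 and 3.40 for replicate 3 summits, and pooled summits have 0.618 to 1.24 in the outermost bins.

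Members did not differ from the other peaks in height by a margin that passed. The signal of a peak is its height above the control as the authors' caller deposited it, and the pooled value is taken on both replicates together. Over members it ran from 64.2 to 366 with a median of 86.2, and over peaks without CAGCTG from 64.2 to 877 with a median of 88.5. In all, 94 of 204 members (46.1%, Wilson 95% interval 39.4 to 52.9) exceeded the median of the list, against 876 of 1737 peaks without it (50.4%, 48.1 to 52.8). The difference of -4.35 percentage points had an interval from -11.5 to 2.89 and did not pass (two-sided Fisher's exact test, adjusted p = 0.547). Among windows above the list's median GC content the direction turned, with 54.7% of members and 48.9% of the rest over the median signal, again without passing (Fisher's exact test, adjusted p = 0.450). P-values in this comparison and those below were adjusted by the Benjamini-Hochberg method over 18 tests unless stated otherwise, and they measure the spread over peaks, not between collections of embryos.

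The replicates differed somewhat in how members stood against the rest. In replicate 2 the median signal was 39.8 in members and 42.9 in peaks without CAGCTG. In replicate 3 it was 48.0 in members and 47.9 in peaks without it. With the thresholded list rebuilt from replicate 2 alone, 42.3% of members and 50.9% of the rest exceeded the median signal, a difference of -8.59 points (Fisher's exact test, adjusted p = 0.0749). In replicate 3's list the shares were 47.9% of 211 regions with CAGCTG and 50.2% of 1730 without it. The difference was -2.36 points (Fisher's exact test, adjusted p = 0.793). Among members the log2 ratio of replicate 3 over replicate 2 had a median of 0.25 and an SD of 0.56 (203 peaks), and among the rest 0.17 and 0.60 (1725 peaks). These SDs are the spread of a difference between 2 replicate values, which is wider than the error of 1 value or of the pooled height. Spearman's rho of the replicates' signals across peaks was 0.41 in members and 0.48 in the rest, a description over peaks that were chosen on the sum of both.

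Fewer members than other peaks were among the 1941 strongest regions of both replicates, by a margin that did not pass. This held for 118 members (57.8%) and 1109 of the others (63.8%), a difference of -6.00 points with an interval from -13.2 to 0.954 (Fisher's exact test, adjusted p = 0.320). A further 33 members were strong only in replicate 2 and 49 only in replicate 3, while 4 were strong in neither. With replicate 3's own list in place of the pooled one, this held for 114 of 211 peaks with CAGCTG (54%) and 1112 of 1730 without it (64.3%). The difference was -10.2 points and passed (Fisher's exact test, adjusted p = 0.0243). All peaks of that list are strong in replicate 3 by choice, so these shares count only which were strong in replicate 2 as well. In the pooled list, among windows above the median GC content, the difference was -0.175 points, with 57.6% of members and 57.8% of the rest (Fisher's exact test, adjusted p = 1.00).

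**Figure D2:**
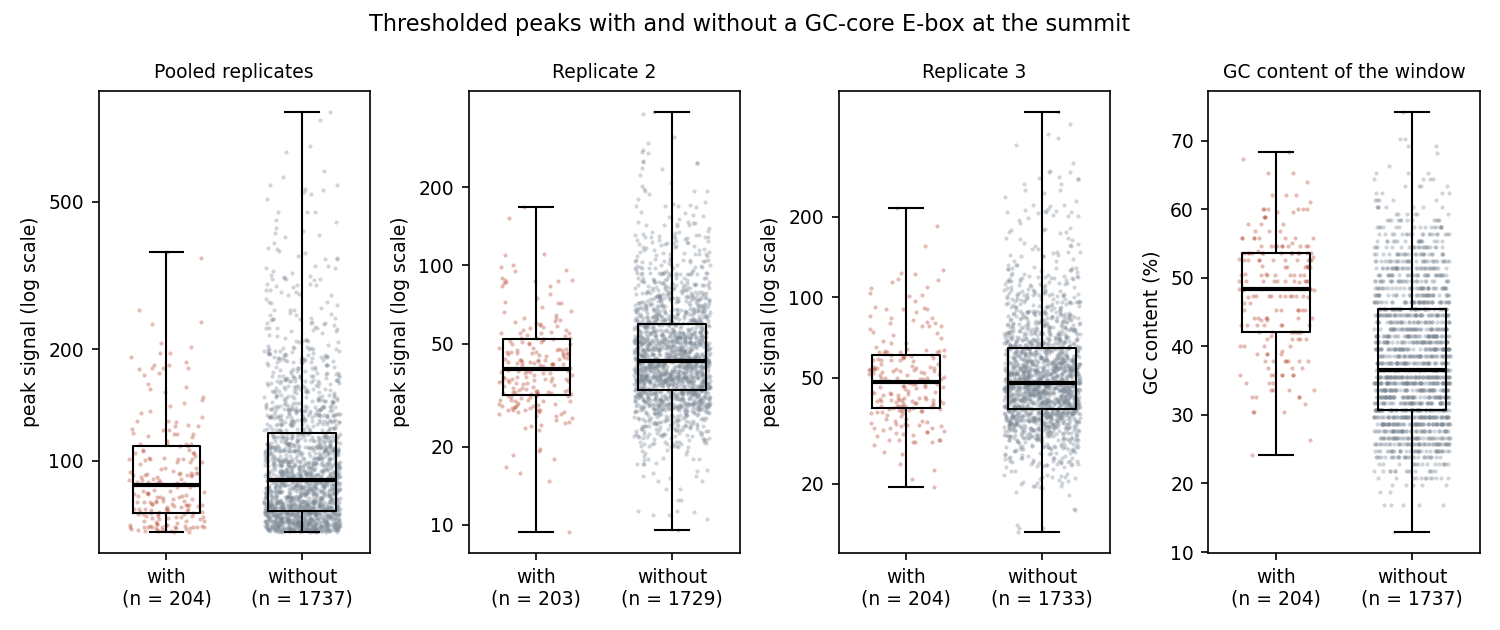
Peak signal (log axes) in the pooled list, replicate 2 and replicate 3, and GC content of the window around the summit in percent, for thresholded peaks with and without the GC-core E-box. Points are peaks, boxes span the quartiles with the median as a thick line, and whiskers reach the lowest and highest peak. Medians of signal are 86.2 with and 88.5 without the E-box in the pooled list, and the GC content is 48.4% with and 36.6% without it.

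The strongest members lay at genes of varied function, with several from neural development among them. Of the 100 strongest peaks 5 were members, and of the 200 strongest 19 were, beside 10.5% of all 1941. The highest member, 160 bp upstream of CG5098, had a signal of 366 (152 in replicate 2 and 215 in replicate 3). RpS27, a protein of the small ribosomal subunit, shares its promoter with Nup37, a nuclear pore protein, and followed with 352 (168 in replicate 2 and 185 in replicate 3), its summit 10 bp upstream of the transcription start site (TSS). The next was intronic, 2781 bp from the nearest TSS, that of CG32264, with 256 (100.5 in replicate 2 and 156 in replicate 3). These 3 were among the strongest regions of both replicates, as were all of the 20 highest members. Members outside promoters are named by the gene with the nearest TSS, and whether the intron or exon belongs to that gene was not examined.

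Next in height came brat and insb. The gene brat encodes a translational repressor that is passed to the differentiating daughter of a neural stem cell, and its member lay in an intron, 3368 bp upstream of the nearest TSS, with a signal of 237 (110.5 in replicate 2 and 126 in replicate 3). A hexamer 29.5 bp from the summit and a CAGATG shared that window. The gene insb encodes Insensible, a nuclear repressor protein of sensory organ precursors, and its promoter had 234 (109.6 in replicate 2 and 122 in replicate 3), 19 bp upstream of the TSS. E(spl)m8-HLH, a helix-loop-helix repressor downstream of Notch, had 181 (98.6 in replicate 2 and 90.5 in replicate 3), 104 bp upstream. The member 515 bp upstream of insc, whose product Inscuteable orients division of neural stem cells, had 178 (68.9 in replicate 2 and 109 in replicate 3). In each of these the log2 ratio of the replicates lay within 1 SD of the members' median.

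The other high members spanned housekeeping, signalling and uncharacterised genes. Shared promoters of CG3437 and CG3552 (208) and of Hs2st, a heparan sulfate sulfotransferase, and RanGAP, the GTPase activator of Ran (196), were among them. So were intronic or intergenic sites at Reph (203), sba (181), CG5953 (177) and trbl, a pseudokinase that restrains cell division (173). CG3009 (195), CG11151 (191), CG12316 (178) and CG4497 (178) had theirs at promoters, and CG5916 with Mic26-27, of the mitochondrial inner membrane, at a shared promoter (170.5). A member in a coding exon (185) lay 2809 bp upstream of the nearest TSS, that of CycY, a cyclin gene. Outside promoters the 5 next highest included intronic ones nearest to msi, a neural RNA-binding protein (135), Diap1, an inhibitor of apoptosis (127), CG46467 (125) and Fur1, a furin protease (121). The last of them was in a coding exon, nearest to InR, the insulin receptor (118). At the foot of the list stood CG32066 (64.7), CG14561 (64.2) and sca (64.2), a secreted protein that spaces neural precursors, with 46.0 in replicate 2 and 20.9 in replicate 3. None of these 3 was among the strongest regions of both replicates, and sca was far lower in replicate 3.

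The share at promoters did not differ between members and the other peaks by a margin that passed. Promoter summits, those no more than 500 bp from a protein-coding TSS, made up 114 of 204 members (55.9%) and 955 of 1737 peaks without CAGCTG (55.0%), a difference of 0.903 points with an interval from -6.34 to 7.95 (Fisher's exact test, adjusted p = 1.00). Of the members, 59 were in introns outside promoters, 23 between genes, 4 in coding exons, 3 in 5′ untranslated regions and 1 in a 3′ untranslated region. Introns took 59 of the 90 members outside promoters (65.6%) and 518 of 782 peaks without it (66.2%), with no difference that passed (Fisher's exact test, adjusted p = 1.00). These 90 members were a median of 2128 bp from the nearest TSS, against 2733 bp for the 782 others.

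Within promoters, the median summit of members was less far upstream of the TSS. The median summit of the 114 promoter members was 33 bp upstream of the TSS (quartiles 104 bp upstream and 2.75 bp downstream), and the median summit of the 955 promoter peaks without the hexamer was 84 bp upstream. The hexamer itself had its median 25 bp upstream. Upstream summits made up 73.7% of promoter members and 80.1% of promoter peaks without CAGCTG. The medians are of signed positions, in which upstream and downstream summits offset each other, and do not compare distances from the TSS. They are given as a description, with no test. In height, promoter members had a median signal of 88.6 and promoter peaks without it 90.3, and 58 of 114 against 498 of 955 exceeded the list's median (Fisher's exact test, adjusted p = 1.00). Outside promoters the medians were 82.1 in members and 86.9 in peaks without it, and 36 of 90 members against 378 of 782 others exceeded the list's median, a difference of -8.34 points with an interval from -18.5 to 2.56 that did not pass either (Fisher's exact test, adjusted p = 0.380).

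Neural precursor and Notch pathway genes were among the members' genes. A peak was given to the genes with a TSS within 500 bp or, failing any, to the gene with the nearest TSS, and 241 of the 1975 genes with a peak (12.2%) then had a member. Of 11 neural precursor genes with a peak, 6 had one (54.5%): brat, insc, edl, mira, wor and sca. Both Notch pathway genes with a member, of 3 with a peak, were numb and N. The lists were chosen with earlier results of these data known and got no test, so the counts are a description beside the 12.2%.

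The neural members differed in height and in site. After brat and insc came edl, which encodes a regulator of Ets factors, with 83.3 (35.5 in replicate 2 and 52.8 in replicate 3), in an intron. The promoter of mira, the adaptor Miranda that carries fate determinants to one daughter cell, had 70.9 (35.9 in replicate 2 and 34.9 in replicate 3). That of wor, a Snail family factor of neural stem cells that was named after its values were seen, had 64.8 (39.0 in replicate 2 and 19.4 in replicate 3). The promoter of numb, an inhibitor of Notch that is inherited by one daughter cell, had 100.7 (32.0 in replicate 2 and 67.6 in replicate 3). The intronic member nearest to N, the Notch receptor itself, had 66.3 (19.6 in replicate 2 and 42.2 in replicate 3). Most of these neural members thus stood below the list's median of 88.1. Replicate 3 was the higher at numb and N, and replicate 2 at wor and sca, by more than 1 SD of the members' log2 ratios.

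Ribosomal protein genes were the list with most peaks. Of 53 cytosolic ribosomal protein genes with a peak, 4 had a member (7.55%, beside the 12.2% of all genes with a peak, and not tested): RpS27, RpS16 (161), RpS21 (141) and RpS14b (87.3), all with summits within 55 bp of the TSS. Of 15 mitochondrial ones 2 did (13.3%), mRpS2 (79.3) and mRpL52 (66.3). The promoters of RpS16, RpS21 and mRpL52 are shared with CG4294, CG3104 and CG12107, and the member at mRpS2 was nearest to the TSS of Mon1. In the Enhancer of split complex, 10 genes had a peak and 1 a member, E(spl)m8-HLH, so the other 9 were reached by peaks with no CAGCTG at the summit.

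The remaining lists had small counts. A pair of members each came from how (100.6), an RNA-binding protein of muscle and glia, with if (72.9), an integrin subunit, among 8 mesoderm and muscle genes, and Vha36-1 (72.2) with Vha44 (71.8), both subunits of the vacuolar proton pump, among 6. Single members were at Dp (72.3), the partner of E2F, of 7 cell cycle genes, SmD3 (75.8), a spliceosome core protein, of 3, Rpn8 (69.0), a proteasome lid subunit, of 7, and crp (73.8), itself a helix-loop-helix gene, of 3 genes for da and its family. Several of these promoters are shared. The members at Vha36-1, Vha44 and Rpn8 were nearest to the TSSs of CG8187, Hmgs and Slik, and those at Dp and SmD3 also lay within 500 bp of Fsn and Oda. Neuron differentiation, glia, sex determination, translation factor and chemosensory receptor genes had from 3 to 5 genes with a peak each and no member.

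Among the features compared, base composition differed most between members and the rest. A word made mostly of G and C is met more often in DNA rich in these bases. The direction of the difference was thus favoured by the rule itself, and leaving out the letters of the word does not remove this. The test below cannot separate a trait of members from this effect of the rule. With the letters of CAGCTG left out, the windows of members had a median GC content of 48.4% (quartiles 42.1 and 53.7), those of peaks without it 36.6% (30.7 and 45.5). Of the members, 170 of 204 (83.3%) were above the list's median, and 799 of 1737 of the rest (46.0%), a difference of 37.3 points with an interval from 31.2 to 42.4 (Fisher's exact test, adjusted p = 2.69e-24). The contrast was as large at promoters, with medians of 48.4% in members and 36.6% in peaks without it, as outside them, with 49.5% in members and 36.6% in peaks without it.

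Most thresholded summits lay in DNA rich in A and T, which set the members apart from them. Among the 28059 pooled candidate regions below the thresholded list, windows with CAGCTG had a median GC content of 49.5% and windows without it 46.5%. Members were close in composition to CAGCTG windows at weak regions, and it was the other thresholded peaks, at 36.6%, that stood apart from the weak ones. In the highest of 4 classes of GC content, bounded by the quartiles of the thresholded list, 23.7% of thresholded peaks had the hexamer (123 of 519, interval 20.2 to 27.5), against 9.31% of weaker regions (1340 of 14393, 8.85 to 9.80). In the lowest class the shares were 1.26% of thresholded peaks (6 of 475, 0.580 to 2.73) and 2.60% of weaker regions (64 of 2464, 2.04 to 3.30). Over all windows, which differ in composition between the lists, 10.5% of thresholded peaks and 7.79% of weaker regions had it.

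**Figure D3:**
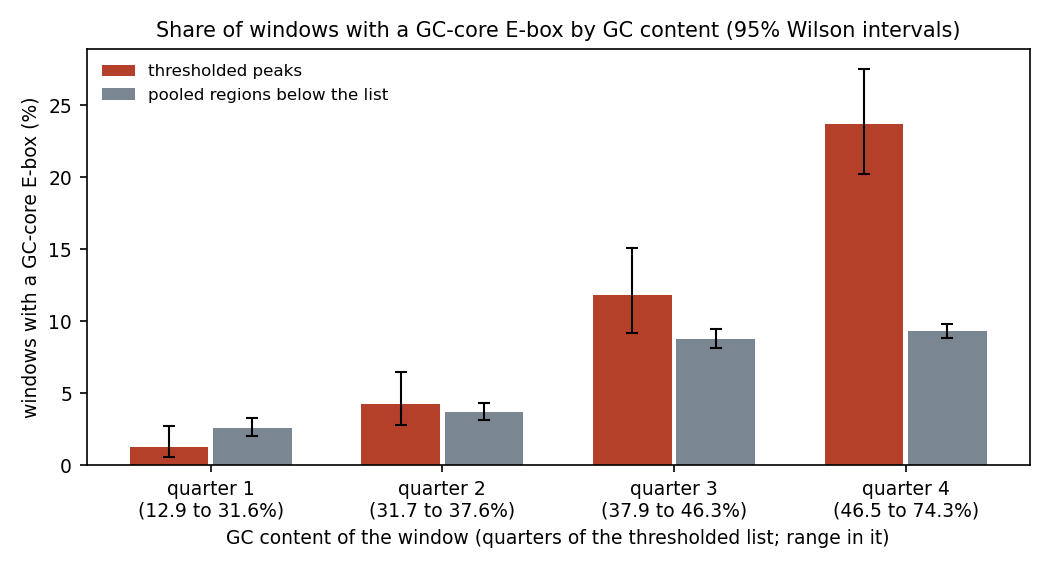
Share of windows of 50 bp on either side of the summit with a GC-core E-box in percent (vertical axis) in 4 classes of GC content, bounded by the quartiles of the thresholded list (horizontal axis), for thresholded peaks and for pooled candidate regions below that list. Bars start at 0 and error bars are 95% Wilson intervals over regions. In the class of highest GC content the bars stand at 23.7% of thresholded peaks and 9.31% of weaker regions, and in the lowest class at 1.26% of thresholded peaks and 2.60% of weaker regions.

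Along the pooled list the hexamer was commoner among high regions than among low ones, whereas within the thresholded part the weakest bin had the highest share. It was in 10.9% of the 3000 highest pooled regions and in 6.37% of the 3000 lowest. Inside the thresholded list, 10 bins by signal held between 6.19% and 14.9%, with 9.23% in the strongest bin and 14.9% in the weakest. The share of promoters also changes along the pooled list, from 53.3% in the highest 3000 to 18.2% in the lowest, and its part in the trend was not tested.

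Other short words were unevenly shared between members and the rest. Any other form of CANNTG was in 95 of 204 members (46.6%) and in 623 of 1737 peaks without CAGCTG (35.9%), a difference of 10.7 points with an interval from 3.61 to 17.9 (Fisher's exact test, adjusted p = 0.0157). GAGAG, the core of sites of the GAGA factor, was in 44 members (21.6%) and 209 of the rest (12.0%; adjusted p = 0.00339 by Fisher's exact test), and TATAAA, the TATA box, in 14 members (6.86%) and 253 of the rest (14.6%; adjusted p = 0.0103 by Fisher's exact test). Both strands were searched, and no letter was shared with CAGCTG. When only windows above the list's median GC content were compared, 170 with and 799 without the hexamer, none of the 3 passed: 49.4% against 41.7% for other E-boxes (adjusted p = 0.234), 23.5% against 17.3% for GAGAG (adjusted p = 0.234) and 4.12% against 5.01% for TATAAA (adjusted p = 1.00), all by Fisher's exact test. On these fewer windows the differences were 7.73 points for other E-boxes, 6.26 for GAGAG and -0.889 for TATAAA. The excess of other E-boxes also failed to pass in each of 5 other settings, among them narrower and wider windows, with adjusted p from 0.181 to 0.700 by Fisher's exact test.

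Of single E-box forms, CACCTG differed most. In 9 tests added after the data had been seen and adjusted among themselves, it was in 24 members (11.8%) and 79 of the rest (4.55%; Fisher's exact test, adjusted p = 0.000852). Windows of CG32264, msi and RpS16 were among those with both hexamers. CACGTG (3.43% of members and 1.21% of the rest) and CAGATG (9.80% of members and 5.76% of the rest) did not pass (Fisher's exact test, adjusted p = 0.0915 for each), nor did the other 6. Some passed in single settings (Fisher's exact test, adjusted over the 9): CACGTG with a window of 25 bp (adjusted p = 0.0268) and in replicate 2's own list (adjusted p = 0.022), and CAGATG in the stronger part of the list (adjusted p = 0.0315). With a window of 100 bp, 12.7% of peaks with CAGCTG in it and 19.9% of those without had CAAATG (Fisher's exact test, adjusted p = 0.00777). In replicate 3's own list, split at its own summits, CAAATG (adjusted p = 0.0134) and CAATTG (adjusted p = 0.0134) were also fewer beside CAGCTG, again by Fisher's exact test. The excess of CACCTG was lost with a window of 25 bp, at 3.42% of peaks with CAGCTG in that window and 2.47% of those without (Fisher's exact test, adjusted p = 0.802). Above the median GC content CACCTG was in 13.5% of members and 7.26% of the rest and no longer passed (Fisher's exact test, adjusted p = 0.122), nor did it in replicate 2's own list (adjusted p = 0.0866).

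The other motifs were rare. GTGGGAA, a core of sites of Suppressor of Hairless, the DNA-binding partner of Notch, was in 6 members (2.94%) and 18 of the rest (1.04%; Fisher's exact test, adjusted p = 0.120), and the difference passed among the stronger 970 peaks of the list (adjusted p = 0.0421) and against the peaks with another E-box (adjusted p = 0.0448). TATCGATA, the DNA replication-related element, was in 5 members and 44 of the rest, CAGGTAG, the site of Zelda, in 2 members and 10 of the rest, and GGTCACAC, of Ohler motif 1, in 1 member and 20 of the rest. None of these passed. Over all 1941 thresholded windows the shares were 13.0% for GAGAG, 13.8% for TATAAA, 1.24% for GTGGGAA, 2.52% for TATCGATA, 0.618% for CAGGTAG and 1.08% for GGTCACAC.

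**Figure D4:**
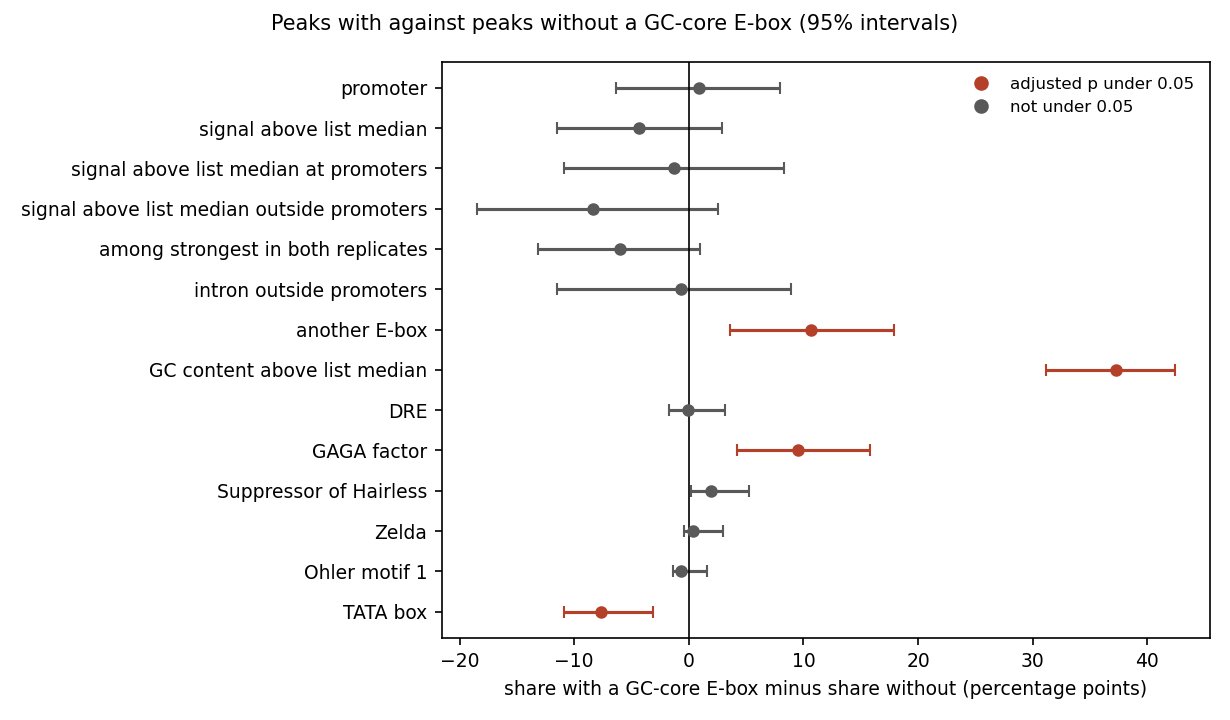
Share of peaks with a GC-core E-box minus share of peaks without one, in percentage points (horizontal axis), for each tested feature (vertical axis), with 95% intervals; red marks an adjusted p under 0.05 by Fisher's exact test. GC content is furthest from 0, at 37.3 points, in a direction favoured by the choice of a word rich in G and C. Another E-box and the GAGA factor word lie above 0, and the TATA box lies below it, at -7.70 points.

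The bases on either side of the hexamer differed between copies near a summit and copies far from every summit. The 204 members hold 226 copies within 50 bp of a summit, copies of 1 member sharing that peak. These are called occupied and were set against copies more than 1000 bp from every thresholded summit, called unoccupied. The names stand for distance alone, and binding of a copy was not measured. Bins of 20 bp at 480 to 500 bp from pooled summits still held 0.618 to 1.24 copies per 100 peaks. Those within 40 bp held 1.8 to 3.14, and how many occupied copies belong to the background was not tested. Since CAGCTG is a palindrome, the 2 outer bases form 10 pairs when strand is ignored. All 10 were tested at promoters and outside them, in 20 tests added after the data had been seen and adjusted among themselves. The pair with G before and T after, gCAGCTGt, stood out in both classes. At promoters it made up 33 of 123 occupied copies (26.8%) and 791 of 7497 unoccupied ones (10.6%), a difference of 16.3 points with an interval from 9.20 to 24.7 (Fisher's exact test, adjusted p = 9.39e-06). Outside promoters it made up 30 of 103 occupied copies (29.1%) and 6721 of 51476 unoccupied ones (13.1%), a difference of 16.1 points with an interval from 8.17 to 25.5 (Fisher's exact test, adjusted p = 0.00023). Of the genome's copies outside promoters, 16191 lay in coding exons, and 6 of those were near a summit. Occupied and unoccupied copies there thus also differ in their share of coding sequence. Its part in the contrasts of outer bases was not tested. Occupied and unoccupied promoter copies were not matched for distance from the TSS. Of unoccupied copies, 33.5% had A or T on both sides within 250 bp of a TSS, 26.8% within 500 bp and 22.1% within 1000 bp. The part of this distance in the promoter contrasts was not tested either.

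The same excess was present in each replicate's own list. With the summits of replicate 2 alone, gCAGCTGt made up 20.6% of occupied and 10.5% of unoccupied promoter copies, and 32.0% of occupied and 13.1% of unoccupied copies outside promoters. With those of replicate 3 alone the shares at promoters were 23.2% of occupied and 10.5% of unoccupied copies, and outside promoters 36.2% of occupied and 13.0% of unoccupied copies. All 4 passed (Fisher's exact test, adjusted p from 3.28e-08 to 0.0024). With a window of 25 bp the share outside promoters was 23.2% of occupied and 13.1% of unoccupied copies and did not pass (adjusted p = 0.174 by Fisher's exact test), on 56 occupied copies.

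Of the other 3 pairs that join 1 base of G or C with 1 of A or T, 2 were fewer among occupied promoter copies and 1 did not differ by a margin that passed. With G before and A after, gCAGCTGa, 3 of 123 occupied promoter copies (2.44%) and 943 of 7497 unoccupied ones (12.6%) were found, a difference of -10.1 points (Fisher's exact test, adjusted p = 0.000987), and outside promoters 7.77% of occupied and 13.4% of unoccupied copies (adjusted p = 0.20 by Fisher's exact test). With T before and G after, tCAGCTGg, the shares were 4.07% of occupied and 10.6% of unoccupied promoter copies (Fisher's exact test, adjusted p = 0.0413) and 1.94% of occupied and 11.5% of unoccupied copies outside promoters (adjusted p = 0.00438). With C before and T after, cCAGCTGt, they were 11.4% of occupied and 8.11% of unoccupied promoter copies (Fisher's exact test, adjusted p = 0.283) and 7.77% of occupied and 7.97% of unoccupied copies outside promoters (adjusted p = 1.00). A before and T after, aCAGCTGt, was in excess outside promoters, with 10.7% of occupied and 4.49% of unoccupied copies (Fisher's exact test, adjusted p = 0.0192), and at promoters 11.4% of occupied and 6.62% of unoccupied copies, which did not pass (adjusted p = 0.098). Copies between G and G, the other form described for Achaete and Scute, were fewer among occupied promoter copies, at 6.50% against 15.5% of unoccupied ones (Fisher's exact test, adjusted p = 0.0144), while outside promoters they were 14.6% of occupied and 17.4% of unoccupied copies (adjusted p = 0.608). In single replicates some of these calls were lost: that of gCAGCTGg with replicate 3's summits (adjusted p = 0.058), that of tCAGCTGg at promoters with replicate 2's (adjusted p = 0.455) and that of aCAGCTGt outside promoters with replicate 3's (adjusted p = 0.248), all by Fisher's exact test, whereas aCAGCTGt at promoters passed with either. With a window of 25 bp and its fewer copies, gCAGCTGg at promoters (adjusted p = 0.334), tCAGCTGg at promoters (0.152) and outside (0.252), and aCAGCTGt (0.0831) and cCAGCTGg (0.252) outside promoters did not pass by Fisher's exact test. With promoters within 250 bp the call of tCAGCTGg at promoters was lost as well (Fisher's exact test, adjusted p = 0.212). The last pair to pass, cCAGCTGg, was in 0 of 103 occupied copies outside promoters, which allows a share of up to 3.60% by its Wilson interval, and in 5.82% of unoccupied ones (Fisher's exact test, adjusted p = 0.0154, 0.288 with replicate 2's summits and 0.0503 with promoters within 1000 bp).

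Counted per member by the copy nearest to the summit, gCAGCTGt was the commonest surrounding, in 57 of 204 (27.9%), 32 of them at promoters. They had a median pooled signal of 87.7, and the other 147 members 84.9. Of the 57, 5 were among the 200 strongest peaks, and of the 147 others 14 were. By replicate, the medians were 39.2 in those 57 and 40.7 in the other 147 in replicate 2, and 46.4 in those 57 and 48.2 in the other 147 in replicate 3. The order thus differed between the pooled list and the replicates, and height was not tested for this surrounding. It was present at CG32264, brat, sba, E(spl)m8-HLH, Hs2st, RpS16, msi, InR, CG32066, if, Dp, SmD3 and Vha44, and at wor. The members at RpS27, RpS21, RpS14b and mRpS2 shared cCAGCTGt, which 22 members had in all.

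Surroundings of A or T on both sides, as in the core promoter element, did not differ in share between promoter members and other members by a margin that passed, though they did in some settings. They were in 35 of 114 promoter members (30.7%) and 22 of 90 other members (24.4%; Fisher's exact test, adjusted p = 0.547). Other windows or lists choose other peaks, and the shares then are of the peaks with CAGCTG in that setting. The excess at promoters passed with a window of 100 bp, at 35.8% of promoter peaks and 22.5% of others (Fisher's exact test, adjusted p = 0.0497). With replicate 3's list it passed at 34.2% of promoter peaks and 18.6% of others (Fisher's exact test, adjusted p = 0.0459). With replicate 2's it did not, at 39.2% of promoter peaks and 24.1% of others (Fisher's exact test, adjusted p = 0.0749). Among copies they made up 38 of 123 occupied (30.9%) and 2008 of 7497 unoccupied (26.8%) at promoters, and 22 of 103 occupied (21.4%) and 8987 of 51476 unoccupied (17.5%) outside them (Fisher's exact test, adjusted p = 0.547 for each). Of the 57 members with A or T on both sides, 28 exceeded the members' median signal, and of the 147 others 74 did (Fisher's exact test, adjusted p = 1.00).

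Very few copies of the hexamer in the genome were near a peak. Of 61213 copies on the chromosome arms, 226 (0.369%, Wilson interval 0.324 to 0.420) lay within 50 bp of a thresholded summit, against 0.177% of CACGTG, 0.175% of CATATG and 0.138% of CAATTG, the other palindromic E-boxes. Promoter copies were near a summit more often, in 123 of 8523 cases (1.44%, 1.21 to 1.72). Copies outside promoters were near one in 0.339% of cases in introns (67 of 19785), 0.167% between genes (25 of 14971) and 0.0371% in coding exons (6 of 16191). Those in 5′ untranslated regions outside promoters had 0.909% on few copies (4 of 440, interval 0.354 to 2.31), and those in 3′ untranslated regions 0.0767% (1 of 1303).

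With the outer bases counted in, the share of copies near a summit spread widely. At promoters it was 3.56% for gCAGCTGt (33 of 926, interval 2.55 to 4.96) and 0.281% for gCAGCTGa (3 of 1067, 0.0957 to 0.823). Outside promoters it was 0.434% for gCAGCTGt (30 of 6913, 0.304 to 0.619) and 0.0332% for tCAGCTGg (2 of 6018, 0.00911 to 0.121). Even for gCAGCTGt most promoter copies had no thresholded summit near them. Seen from the genes, 494 of 3447 TSSs with CAGCTG from 250 bp before to 50 bp after them (14.3%) had a thresholded summit within 500 bp, against 1290 of 15805 TSSs without it (8.16%). The shares of copies near a summit use the distance of the rule and, like the shares of TSSs, are given without a test. Those of TSSs do not rest on the rule, and TSSs of 1 gene can share a summit.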

How the data were processed

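Anti-GFP ChIP-seq regions of da-GFP embryos were used as deposited: for each of 2 replicates and for their pooled reads a relaxed list of 30000 regions, and the list of 1941 regions past the filter on irreproducible discovery rate (IDR), in dm6. Each region has a signal deposited by the authors, peak height above the control, used only to rank and describe regions within a list, and a −log10 q deposited by the authors, which ends at a ceiling of 3.54 shared by 1731 of the 1941 regions and was not tested. Pooling and the use of a control follow the deposited notes; of the sources used here none names the caller, the aligner or the threshold on IDR. The thresholded list equals the 1941 highest pooled regions. The lists hold no read counts, so depth is unknown. The dm3 lists were not used here.

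Windows of 50 bp on either side of the summits were read from the Release 6 genome and searched on both strands; positions came from protein-coding genes of Ensembl 115 (BDGP6.54; 13945 genes, 19252 TSSs). No region ran past the end of an arm. A replicate's region was matched to a peak by the nearest summit within 200 bp, whatever its height. Shares were compared with two-sided Fisher's exact tests and Benjamini-Hochberg adjustment, with 95% Wilson and Newcombe intervals that cover counting error only (Python 3.11.15, scipy 1.17.1, pandas 2.3.3). The steps were tested on simulated sequence with implanted hexamers. Since no label says that the replicates came from separate cultures of flies, their spread may be technical.

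The members, gene lists and tests were chosen with earlier results of these data known. The genes named are those of the 20 highest members, the 5 next highest outside promoters, the 3 lowest, up to 4 per gene list and the member with most copies.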

Additional observations from a re-analysis of the deposited data

How the results depend on the processing

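Values are differences between shares in percentage points, members minus the rest unless stated, with p from Fisher's exact test adjusted within each setting. With another window or list, members stand for the peaks of that setting with CAGCTG in the window. The cause of the changes was not tested. The excess in GC content passed in all 7 alternatives (25.7 to 47.8), in a direction that the choice of a word rich in G and C favours. That of gCAGCTGt at promoters passed in all 6 (10.1 to 16.6, occupied minus unoccupied copies). The excess of other E-boxes passed in none: 6.07 with a window of 25 bp, 5.13 with 100 bp, 8.49 in the stronger part of the list, 3.43 to 3.94 with single replicates' lists, and 7.73 above the median GC content, a setting added after seeing the data, like the tests of single E-box forms and outer bases. GAGAG and TATAAA each passed in 6 of 9 alternatives. Presence in both replicates was at -10.2 to -2.95 with single replicates' lists and passed with that of replicate 3. In those lists presence in the list's own replicate is given by choice, so the values reflect the other replicate alone. For A or T on both sides, promoter members minus other members passed at 13.2 with 100 bp and at 15.7 with replicate 3's list, and not at 15.1 with replicate 2's; occupied minus unoccupied promoter copies passed at 7.68 with 100 bp and at 10.8 with replicate 2's list, and not at 6.83 with replicate 3's.

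Results that did not pass changed sign, without passing, as follows. With single replicates' lists the ranges were -0.885 to 5.45 for promoters, -7.67 to 4.25 for high signal at promoters, -0.147 to 3.30 for introns, 0.300 to 0.519 for TATCGATA, -0.497 to 0.538 for Ohler motif 1, -2.16 to -1.92 for CATATG, and, outside promoters, -0.362 to 4.22 for A or T on both sides, -1.13 to 2.71 for gCAGCTGc and -1.54 to 0.788 for tCAGCTGa. Above the median GC content, high signal was at 5.77, at promoters 10.9, and introns at 2.49. Against peaks with no E-box promoters were at -0.222, and against peaks with another E-box high signal at promoters was at 0.877 and TATCGATA at 0.204. With promoters within 250 bp, high signal there was at 0.947. With 25 bp, TATCGATA was at 0.119, the Zelda site at -0.164, Ohler motif 1 at 0.361, CACATG at -1.17, and high signal of members with A or T on both sides, minus other members, at 2.71. With 100 bp, introns were at 2.56, CATATG at -1.34, high signal of members with A or T on both sides at 3.42, and cCAGCTGt outside promoters at 0.510. In the stronger part of the list introns were at 1.32, TATCGATA at 1.37, the Zelda site at -0.685, CAACTG at -2.74 and CATATG at -2.02.

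Depth is unknown, and the 2 replicates were pooled before peaks were ranked, so intervals cover counting over peaks only. Embryos of all stages and tissues were mixed, and fewer cells with a bound site cannot be told apart from weaker binding in more cells. A control library was used in calling and was not analysed here. No paired analysis was possible because the study has 1 group.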
